A study of Mus musculus with 4 samples.

Results

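The 35 genes described here encode plasma proteins of the complement and coagulation systems. The rule that picked them used gene symbols and no measured value, though the list was made with earlier results of these data known. All 35 were found among the 22103 entries of the deposited FPKM table. FPKM is the number of fragments per kilobase of transcript, scaled to the size of the library. By role, 7 of the genes start the classical and lectin pathways of complement, 2 belong to its central and alternative part, 6 to its terminal pathway and 3 to its inhibitors. A further 4 belong to the contact system of coagulation, 6 to thrombin generation and fibrin stabilisation, 5 to the anticoagulants and 2 to fibrinolysis.

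RNA of whole liver was sequenced from 2 wild type (WT) mice and 2 Brg1 LKO mice. Brg1 is the ATPase of a complex that moves nucleosomes, and its gene is *Smarca4*. In the Brg1 LKO mice, floxed *Smarca4* alleles were removed by Cre under the albumin promoter, which is active in hepatocytes, and the WT mice were littermates. All were males, by the study's methods 8 weeks old when liver injury was induced. Both genotypes had received alcohol for 15 days by the labels. By the study's text this was 2 weeks on an ethanol liquid diet that ended with 1 ethanol gavage. No liver without alcohol was analysed here, so the comparison is between genotypes under alcohol. Each library is a separate numbered liver sample, and a liver in the text means 1 such sample.

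Complement and coagulation are cascades of inactive proteases and cofactors that hepatocytes release into plasma. In complement, recognition proteins activate C1r, the MASPs, C2 and C4, which leads to cleavage of C3 and then to the pore formed by C5 to C9. In coagulation, the contact and tissue factor routes meet at factor X, which with factor V turns prothrombin into thrombin, and thrombin makes fibrin from fibrinogen. Antithrombin, protein C and their relatives limit thrombin, and plasmin dissolves fibrin. The liver is the main source of most of these proteins, and many of them are acute phase proteins whose output follows inflammation.

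No one of the 35 genes differed between the Brg1 LKO and WT livers by the threshold of the study, which asks for over 2-fold together with an unadjusted p under 0.05. Of all 12346 genes tested, 0.980% passed it. With the p alone, 0 of the 35 genes passed against 2.00% of all genes. The lowest p of a member was 0.167, for *Masp1*. The Benjamini-Hochberg adjusted p from limma, over all genes tested, was 1.00 for every member and was under 0.05 for 0 of all genes tested, 247 of which had an unadjusted p under 0.05. The log2 differences of the members, Brg1 LKO minus WT on log2(FPKM + 0.1), ran from −0.36 to 0.50, with 19 above 0 and 16 below. Their median was 0.02, beside −0.02 for all genes tested, and the median of their sizes was 0.11 beside 0.17. With each liver left out, the median of the members ran from −0.14 without LKO replicate 2 to 0.15 without LKO replicate 1.

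In whole-liver RNA, fewer cells of a type and less RNA per cell cannot be told apart. The 95% interval of the difference lay within a 2-fold change in both directions for 29 members, and reached past it in 1 direction for the other 6, *C3*, *Masp1*, *C6*, *F11*, *F5* and *Proz*. The median distance from a difference to the ends of its interval was 0.71, so this fit could not resolve smaller differences with 2 livers per group. Intervals are given for this fit alone, in which no scaling between livers was added. With median-ratio rescaling the limma p of *Proz* was 0.0898 beside 0.294, and that of *F11* was 0.479 beside 0.395. The smallest two-sided p that an exact permutation of 2 against 2 livers can give is 0.333, and limma's p-values draw on a spread shared across all genes.

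*Smarca4*, the targeted gene, had FPKM of 1.78 and 1.95 in WT and of 0.608 and 0.579 in Brg1 LKO, whose mean was 31.8% of that of WT. It passed the threshold, and the 95% interval of its log2 difference was −2.23 to −0.78, so the interval alone reaches to less than 2-fold. Estimated depth was 72545161 to 80926942 reads per liver, and each member had between 829 and 524670 estimated reads in each liver. At the lowest of these the counting error was 3.47%, small beside the SE of the members, which was 0.30 to 0.38. That SE draws on the spread between livers shared across all genes, and not only on the spread of each member. All 10 hepatocyte markers were expressed, with *Alb* at 10710 to 12486 FPKM.

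RefSeq windows of 250 bases before the start of transcription were at hand for 27 of the 35 members. They are shown because liver genes of this kind are known targets of the factors HNF1, HNF4, C/EBP and STAT3, whose core words can be read in them. The word GTTAAT, the core word of the HNF1 site, was in the window of 8 of the 27 genes (29.6%), beside 7.49% of the 27025 genes with a window. Those 8 genes were *C1ra*, *C4bp*, *C8a*, *C8b*, *F13b*, *Hc*, *Proz* and *Vtn*. The C/EBP word TTGNNNAA was in 14 (51.9%, beside 36.6% of all), the STAT word TTCNNNGAA in 4 (14.8%, beside 8.13%), the HNF4 word CAAAGTCC in 0 (beside 1.38%) and TATAAA in 3 (11.1%, beside 14.3%). Both strands were searched, the words TTGNNNAA and TTCNNNGAA may cover the same bases where they meet, and a match is a string of letters and not a bound site.

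The windows below belong to 5 of the 6 members whose WT and Brg1 LKO values did not overlap, and capitals mark the words found. *C3* (GRCm38.p6, chr17:57228137-57228386, minus strand) has 2 C/EBP words, which start 70 and 45 bases before the start of transcription. *Vtn* (chr11:78498870-78499090, plus strand) has an HNF1 word at 112 bases, on the minus strand, and the TATA word on both strands in overlap at 137 and 135 bases. *Proz* (chr8:13060658-13060907, plus strand) has an HNF1 word at 211 bases. *F5* (chr1:164151585-164151834, plus strand) and *C6* (chr15:4726960-4727174, plus strand) have none of the 5 words. For *Vtn* and *C6* the last 29 and 35 bases of the window lie inside the gene in GENCODE M21 and are left out. All are written 5′ to 3′ along the strand of the gene.
C3: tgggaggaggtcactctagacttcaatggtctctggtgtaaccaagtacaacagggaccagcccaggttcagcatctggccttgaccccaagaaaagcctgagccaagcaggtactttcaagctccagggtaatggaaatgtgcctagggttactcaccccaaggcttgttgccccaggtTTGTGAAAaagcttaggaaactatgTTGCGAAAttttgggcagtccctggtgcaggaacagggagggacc
Vtn: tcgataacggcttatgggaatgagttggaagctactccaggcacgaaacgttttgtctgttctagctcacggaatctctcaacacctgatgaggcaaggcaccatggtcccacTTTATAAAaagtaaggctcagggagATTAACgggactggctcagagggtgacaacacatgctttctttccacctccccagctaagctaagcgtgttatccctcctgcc
Proz: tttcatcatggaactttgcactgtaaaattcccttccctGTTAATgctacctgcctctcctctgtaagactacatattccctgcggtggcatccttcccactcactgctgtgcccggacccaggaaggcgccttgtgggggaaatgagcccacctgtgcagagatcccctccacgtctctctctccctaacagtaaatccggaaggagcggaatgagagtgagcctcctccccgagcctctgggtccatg
F5: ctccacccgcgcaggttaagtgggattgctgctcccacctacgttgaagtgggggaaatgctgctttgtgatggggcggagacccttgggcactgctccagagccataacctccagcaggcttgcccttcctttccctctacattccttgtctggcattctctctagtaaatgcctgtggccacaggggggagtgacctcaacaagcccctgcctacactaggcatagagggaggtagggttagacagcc
C6: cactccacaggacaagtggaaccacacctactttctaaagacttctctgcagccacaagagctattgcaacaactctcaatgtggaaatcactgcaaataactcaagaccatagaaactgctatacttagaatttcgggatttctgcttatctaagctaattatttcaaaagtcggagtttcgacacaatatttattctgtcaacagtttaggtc

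The 7 genes that start the classical and lectin pathways were measured at 5.45 to 189 FPKM. Their median log2 difference was −0.07, and it turned to 0.04 with the livers scaled to the same FPKM total. With each liver left out it ran from −0.15 without WT replicate 1 to 0.24 without LKO replicate 1. *C2*, which gives the protease of the classical C3 convertase, was at 169 and 189 FPKM in WT and 162 and 179 in Brg1 LKO. *C4b*, the other subunit of that convertase, was at 128 and 105 FPKM in WT and 89.6 and 137 in Brg1 LKO, so that the Brg1 LKO livers lay on either side of both WT livers. *C1ra*, the protease C1r, was at 12.0 and 14.2 FPKM in WT and 13.3 and 14.3 in Brg1 LKO. Mannose-binding lectins, which recognise sugars on microbes, are encoded by *Mbl1* and *Mbl2*. *Mbl1* was at 22.2 and 27.3 FPKM in WT and 19.7 and 26.1 in Brg1 LKO, and *Mbl2* at 28.0 and 46.8 FPKM in WT and 36.9 and 47.5 in Brg1 LKO. In both genes replicate 2 was higher than replicate 1 in each genotype, and the groups overlapped. Replicate 2 was also the higher for 80.3% of all genes tested in WT and 73.2% in Brg1 LKO.

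The lectin-associated proteases gave the widest contrast within this role. *Masp1* had FPKM of 6.64 and 5.45 in WT and of 10.1 and 7.26 in Brg1 LKO. The groups did not overlap, and the difference of 0.50 (SE 0.34, 95% interval −0.24 to 1.24) was the largest of the 35. Within the Brg1 LKO pair, replicate 2 minus replicate 1 was −0.47 on the same scale. Without LKO replicate 1 the difference was 0.27, and over the 13 alternative settings it was 0.27 to 0.74. As the groups did not overlap, leaving out a liver or changing the fit could not turn its sign. With median-ratio rescaling, the same FPKM total and quantile normalization, which could, it was 0.53, 0.60 and 0.50. *Masp2*, which cleaves C4 and C2, was at 17.0 and 22.8 FPKM in WT and 13.1 and 23.3 in Brg1 LKO. Its difference was −0.17, with LKO replicate 1 below both WT livers and LKO replicate 2 above them.

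*C3*, on which all complement routes meet, was the most abundant of the 35 and stood 55th by mean FPKM among all entries. Its FPKM were 1019 and 808 in WT and 1040.3 and 1408 in Brg1 LKO. The groups did not overlap, but the gap between WT replicate 1 and LKO replicate 1 was small beside the distance within either pair. The log2 difference was 0.42 (SE 0.31, 95% interval −0.26 to 1.09), and 0.20 without LKO replicate 2. *Cfb*, factor B of the alternative pathway, was at 713 and 743 FPKM in WT and 673 and 747 in Brg1 LKO, a difference of −0.04. The median of the pair was 0.19, or −0.06 after quantile normalization, and ran from 0.04 without LKO replicate 2 to 0.34 without LKO replicate 1. The ratio of *C3* to *Cfb* was 1.43 and 1.09 in WT and 1.55 and 1.89 in Brg1 LKO.

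**Figure D1:**
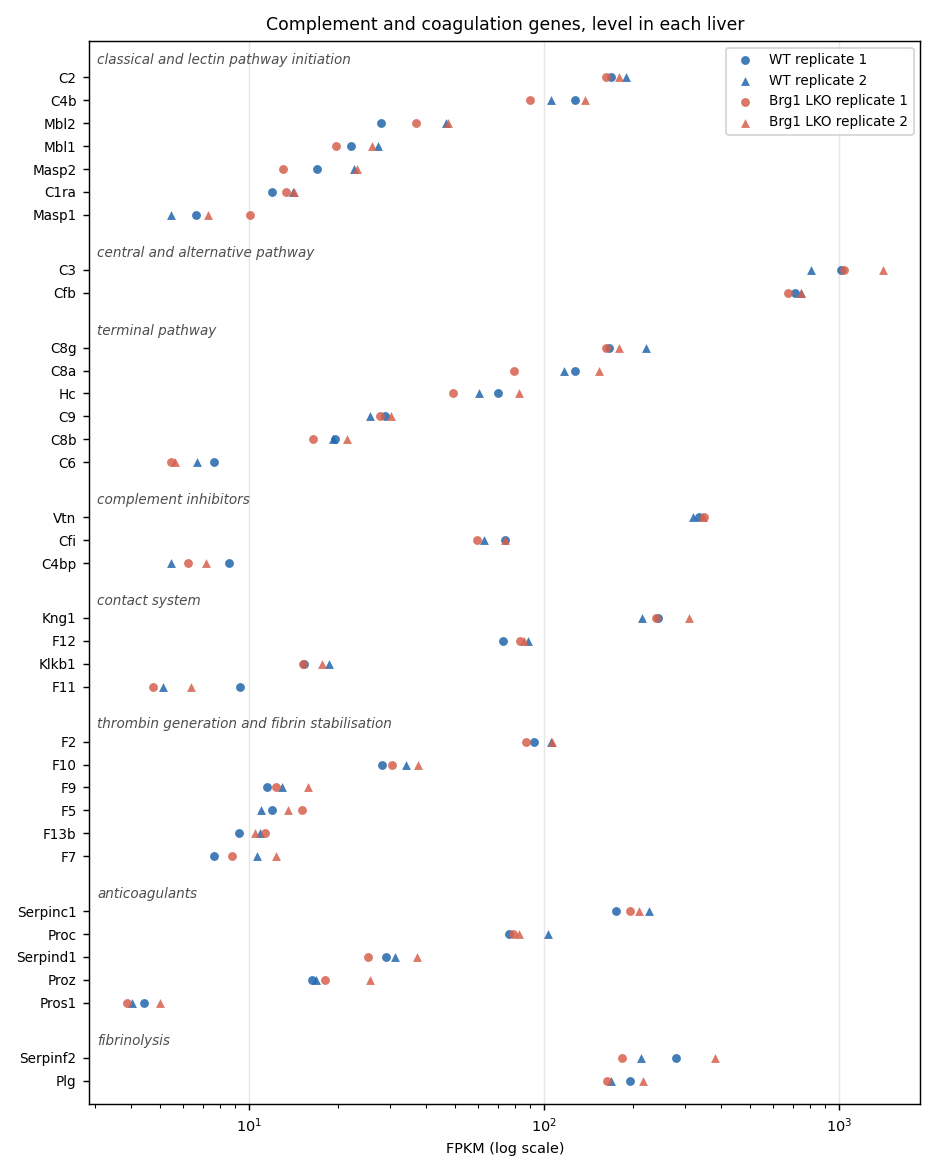
FPKM of the 35 genes in each of the 4 livers on a log axis, grouped by role, with WT in blue, Brg1 LKO in red, replicate 1 as a circle and replicate 2 as a triangle. Levels ran from *C3* at 808 to 1408 FPKM to *Pros1* at 3.86 to 5.01, and the genotypes overlapped in 29 of 35 genes. They did not overlap in 17.1% of the members, beside 20.7% of all genes tested.

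Of the 6 genes of the terminal pathway, 5 had a negative difference and the median was −0.10, which became 0.005 with the livers scaled to the same FPKM total, −0.31 without LKO replicate 2 and 0.15 without LKO replicate 1. *Hc*, the gene of C5, whose fragment C5a draws neutrophils, was at 70.2 and 60.4 FPKM in WT and 49.4 and 82.6 in Brg1 LKO, a difference of −0.03. Both Brg1 LKO values of *Hc* lay outside the WT pair, 1 below it and 1 above. *C6*, which joins the growing pore, had FPKM of 7.63 and 6.66 in WT and of 5.45 and 5.62 in Brg1 LKO, with both Brg1 LKO values below both WT values. Its difference was −0.36 (SE 0.33, 95% interval −1.07 to 0.35), or −0.46 to −0.26 under the 13 alternatives. With median-ratio rescaling, the same FPKM total and quantile normalization, the only ones that could turn its sign, it was −0.33, −0.26 and −0.38. *C9*, which forms the wall of the pore, was at 28.9 and 25.8 FPKM in WT and 27.9 and 30.4 in Brg1 LKO.

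C8 is made of an alpha, a beta and a gamma chain in equal number, and the genes of all 3 chains were measured. *C8a* was at 128 and 117 FPKM in WT and 79.5 and 154 in Brg1 LKO, *C8b* at 19.6 and 19.4 in WT and 16.5 and 21.5 in Brg1 LKO, and *C8g* at 166 and 222 in WT and 163 and 179.9 in Brg1 LKO. Per length, *C8b* was the lowest chain in every liver. *C8a* exceeded it 4.83 to 7.14 times and *C8g* 8.35 to 11.5 times. *C8a* and *C8b* lie side by side on chromosome 4 (GRCm38, 104815679-104876398 on the minus strand and 104766317-104804548 on the plus strand). Between the Brg1 LKO livers, *C8a* differed 1.93-fold.

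The 3 complement inhibitors differed by −0.04 to 0.09, with a median of −0.03 that became 0.07 with the livers scaled to the same FPKM total, 0.12 without WT replicate 1, 0.08 without LKO replicate 1, −0.155 without WT replicate 2 and −0.14 without LKO replicate 2. *Vtn* encodes vitronectin, which keeps the pore out of membranes. Its FPKM were 336 and 320.0 in WT and 350.3 and 345 in Brg1 LKO. The groups did not overlap, with a difference of 0.09 (SE 0.31), which turned to −0.14 after quantile normalization. *Cfi*, the protease factor I that inactivates C3b and C4b, was at 73.9 and 62.7 FPKM in WT and 59.6 and 73.9 in Brg1 LKO. *C4bp*, which holds C4b for factor I, was at 8.58 and 5.44 FPKM in WT and 6.21 and 7.17 in Brg1 LKO, with both Brg1 LKO values inside the WT pair.

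In the contact system the differences ran from −0.33 to 0.26. *F12*, the factor that starts this route on charged surfaces, was at 72.6 and 88.1 FPKM in WT and 83.0 and 85.8 in Brg1 LKO. *Klkb1*, plasma prekallikrein, was at 15.4 and 18.8 FPKM in WT and 15.3 and 17.8 in Brg1 LKO. *F11*, its neighbour on chromosome 8 and the link to factor IX, had a value in WT replicate 1 that exceeded WT replicate 2 by 1.83-fold, at 9.37 and 5.11 FPKM, beside 4.74 and 6.35 in Brg1 LKO. *Kng1*, the kininogen that carries bradykinin, was at 243 and 215 FPKM in WT and 239.5 and 311 in Brg1 LKO. *Kng2*, its close copy, had the same difference of 0.26 at higher levels, with 349 and 318 FPKM in WT and 373 and 427 in Brg1 LKO, and how reads common to both were counted is not given in the sources used here. The median of the 4 contact genes was 0.02, with −0.02 after quantile normalization, and ran from −0.05 without LKO replicate 2 to 0.13 without WT replicate 2.

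Among the genes of thrombin generation and fibrin stabilisation, 5 of 6 differences were positive. The median was 0.16, with 0.26 at the same FPKM total, −0.007 without WT replicate 1, −0.006 without LKO replicate 2 and 0.26 without either of the other livers. *F2*, prothrombin, was at 92.3 and 106 FPKM in WT and 87.2 and 107 in Brg1 LKO, a difference of −0.04. *F5*, the cofactor of factor Xa, had FPKM of 12.0 and 11.01 in WT and of 15.1 and 13.6 in Brg1 LKO. Its groups did not overlap. The difference was 0.32 (SE 0.33, 95% interval −0.39 to 1.02), or 0.24 to 0.42 under the 13 alternatives. With median-ratio rescaling, the same FPKM total and quantile normalization, the only ones that could turn its sign, it was 0.35, 0.42 and 0.26.

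*F7*, which acts with tissue factor, was at 7.63 and 10.7 FPKM in WT and 8.80 and 12.4 in Brg1 LKO. *F10*, the factor at which both routes meet, was at 28.3 and 34.2 FPKM in WT and 30.6 and 37.5 in Brg1 LKO. For both, replicate 2 was above replicate 1 in each genotype, as for most genes tested, and the groups overlapped. *F9*, the factor lacking in haemophilia B, was at 11.5 and 12.9 FPKM in WT and 12.3 and 15.9 in Brg1 LKO, and *F13b*, the carrier subunit of the factor that crosslinks fibrin, at 9.29 and 10.9 in WT and 11.3 and 10.5 in Brg1 LKO. *F7*, *F10* and *Proz* stand in a row on chromosome 8 of GRCm38 (13026034-13035809, 13037308-13056676 and 13060914-13076026, all on the plus strand), and their differences were 0.21, 0.12 and 0.37. *C4b*, *Cfb* and *C2*, which lie together on chromosome 17 between 34728380 and 34898265, had differences of −0.07, −0.04 and −0.07.

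**Figure D2:**
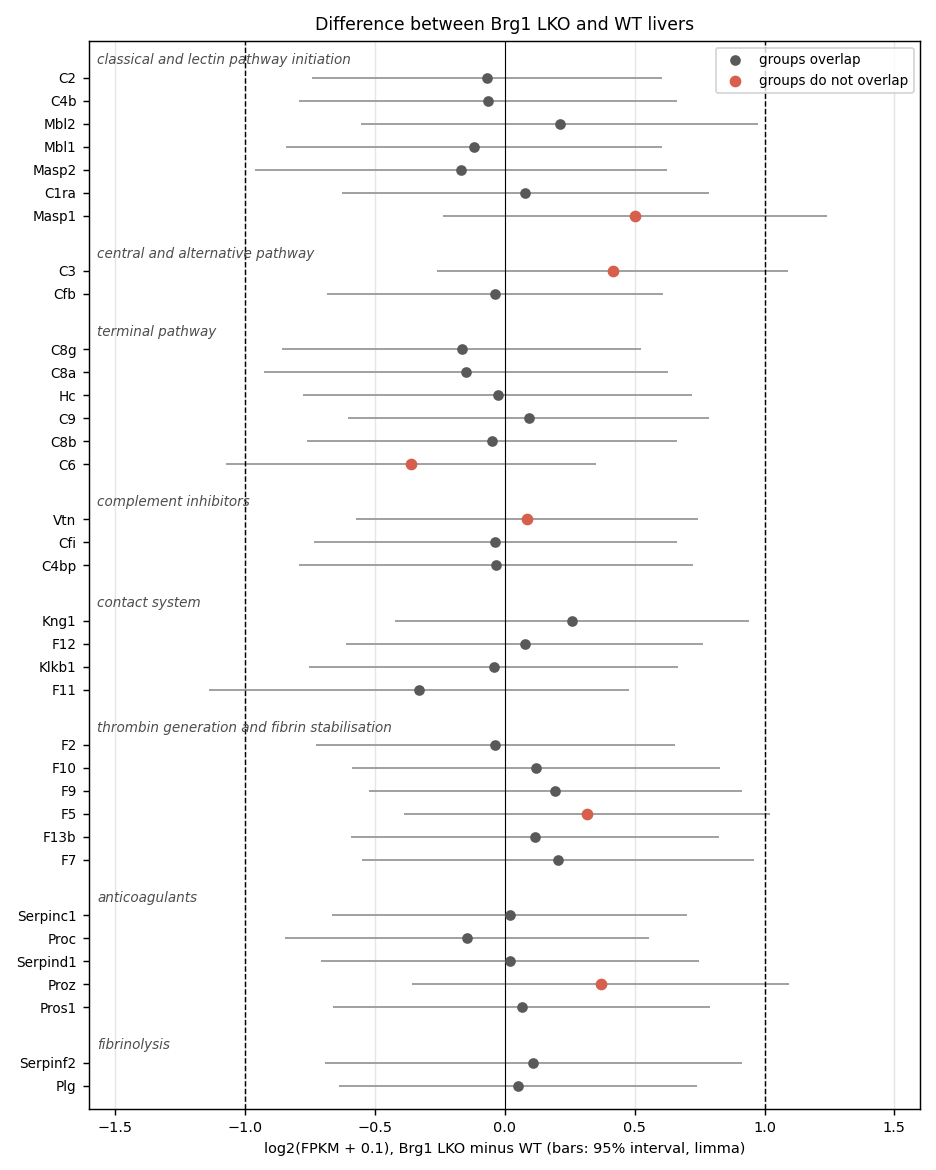
Brg1 LKO minus WT on log2(FPKM + 0.1) for each gene, with the 95% interval from limma, grouped by role, and dashed lines at a 2-fold change. Red marks the 6 genes whose groups did not overlap (17.1%, beside 20.7% of all genes tested), and every interval spans 0.

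The 5 anticoagulant genes had a median difference of 0.02, with −0.03 without WT replicate 1, 0.07 without WT replicate 2, 0.25 without LKO replicate 1 and −0.12 without LKO replicate 2. *Serpinc1*, antithrombin, was at 175 and 228 FPKM in WT and 196 and 209.8 in Brg1 LKO, with both Brg1 LKO livers inside the WT pair. *Serpind1*, heparin cofactor II, was at 29.1 and 31.4 FPKM in WT and 25.3 and 37.1 in Brg1 LKO, with the WT pair inside the Brg1 LKO pair. *Proc*, protein C, which inactivates factors V and VIII, was at 76.4 and 104 FPKM in WT and 78.5 and 82.3 in Brg1 LKO. *Pros1*, its cofactor protein S, was the lowest of the 35, with 4.40 and 4.02 FPKM in WT and 3.86 and 5.01 in Brg1 LKO. *Proz*, protein Z, which helps to inhibit factor Xa, had FPKM of 16.4 and 16.9 in WT and of 18.1 and 25.7 in Brg1 LKO. Its groups did not overlap, with a difference of 0.37 (SE 0.34, 95% interval −0.36 to 1.09), which was 0.12 without LKO replicate 2.

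*F2*, *F7*, *F9*, *F10*, *Proc*, *Pros1* and *Proz* encode proteins that need vitamin K to bind calcium. Their differences had a median of 0.12 and ran from −0.15 to 0.37. The enzymes of that modification, *Ggcx* and *Vkorc1*, differed by 0.004 and −0.02.

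In fibrinolysis, *Plg*, plasminogen, was at 196 and 169 FPKM in WT and 164 and 216 in Brg1 LKO. *Serpinf2*, the antiplasmin that blocks its active form, was at 281 and 213 FPKM in WT and 184 and 379 in Brg1 LKO. The Brg1 LKO livers differed in *Serpinf2* by 2.07-fold, the widest distance between replicates of any member, and enclosed both WT livers. The differences between genotypes were 0.05 and 0.11. Their median of 0.08 was 0.23 without WT replicate 1, −0.07 without WT replicate 2, 0.44 without LKO replicate 1, −0.28 when LKO replicate 2 was left out, and −0.005 after quantile normalization.

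The WT and Brg1 LKO values did not overlap in 6 of the 35 genes (17.1%), beside 20.7% of all genes tested. The Brg1 LKO livers were higher in *Masp1*, *C3*, *Vtn*, *F5* and *Proz* and lower in *C6*. The mean FPKM of the groups differed by more than 1.5-fold for 0 members and by less than 1.3-fold for 31. The share of all genes at these limits was not counted, so the counts are not read as particular to the members.

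The median size of the log2 difference was 0.36 between the Brg1 LKO livers and 0.23 between the WT livers, beside 0.40 and 0.31 for all genes tested. These are distances between single livers, which are wider by construction than those between group means. The genotype difference was larger than both replicate differences in 4 members, *Masp1*, *C6*, *Vtn* and *F5* (11.4%, beside 11.8% of all genes).

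Replicate 2 exceeded replicate 1 in the Brg1 LKO livers for 31 of the 35 members, with a median difference of 0.31, and for 73.2% of all genes, with a median of 0.30. In the WT livers replicate 2 was higher for 18 of the 35 members, with a median of 0.04, and for 80.3% of all genes, with a median of 0.27. The median of the members was close to that of all genes between the Brg1 LKO livers and below it between the WT livers. A change of more than 1.5-fold between the Brg1 LKO livers was seen for *Serpinf2*, *C8a*, *Masp2*, *Hc* and *C4b*, at 2.07, 1.93, 1.78, 1.67 and 1.53 times, each higher in replicate 2. Between the WT livers it was seen for *F11* and *C4bp*, which were 1.83 and 1.58 times higher in replicate 1, and for *Mbl2*, which was higher in replicate 2.

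**Figure D3:**
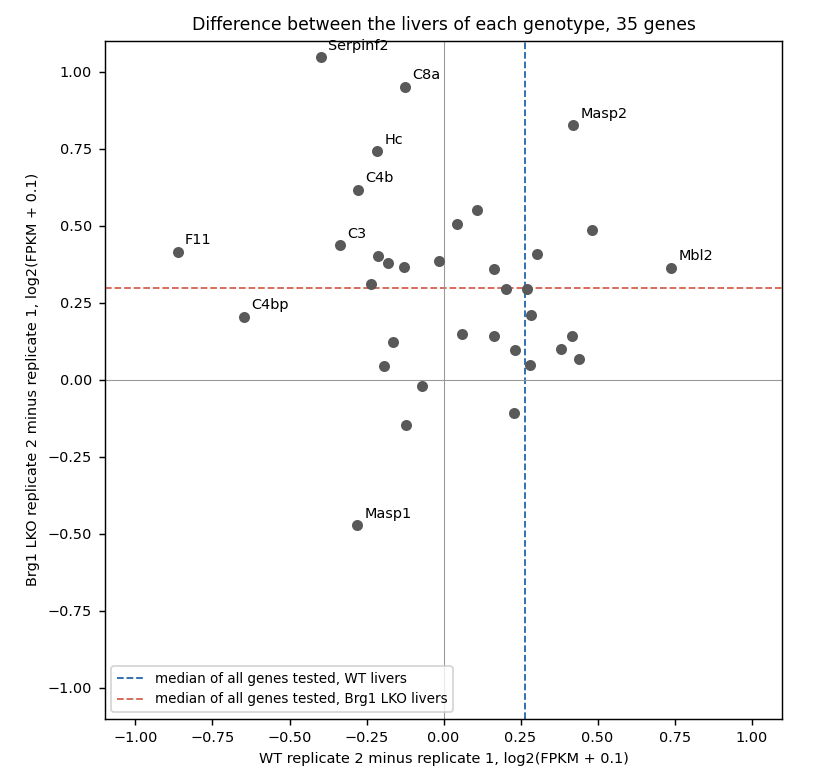
Difference between the livers of each genotype in log2(FPKM + 0.1) for the 35 genes, WT on the horizontal axis and Brg1 LKO on the vertical axis, with dashed lines at the median of all 12346 genes tested (0.27 and 0.30). Named points are the genes that differed by over 1.5-fold in a pair, with *C3* and *Masp1*, and 31 of the 35 points lie above 0 on the vertical axis.

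In level, per length and over the 4 livers, the members spanned 247-fold from *C3* to *Pros1*. Ordered by mean FPKM, 28 of the 34 neighbouring pairs overlapped in the range of their livers and 6 did not. *C3* stood apart above *Cfb*, and *Cfb* above a run that began with *Vtn*, *Serpinf2*, *Kng1*, *Serpinc1* and *Plg*. Further gaps lay between *C2* and *C8a* and between *Hc* and *Mbl2*. The neighbours *Klkb1* and *C1ra*, and *C6* and *Pros1*, did not overlap either, but other members bridged them. *F9*, below *C1ra* by mean, reached 15.9 FPKM in LKO replicate 2, above *Klkb1* at 15.3 in LKO replicate 1. *F11*, above *C6* by mean, fell to 4.74 FPKM in LKO replicate 1, below *Pros1* at 5.01 in LKO replicate 2. The 35 genes together made up 0.957% and 0.857% of all FPKM in WT and 0.927% and 1.20% in Brg1 LKO, of which *C3* and *Cfb* were 38.0% to 42.9%.

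Some entries carry a limit of annotation. The transcript named for the entry is not annotated as coding in GENCODE M21 for 4 members, *F2* (4 exons), *Mbl1*, *Klkb1* and *C4bp* (1 exon, a retained intron). Their levels per length are thus uncertain, and whether the comparison between livers is affected as well was not tested. *C2* and *Cfb* share exons with the readthrough gene *Gm20547*. The transcript of the *Klkb1* entry is annotated to *Gm45753* and not to *Klkb1*, and it overlaps *Cyp4v3* on the same strand. *Masp2*, *Hc*, *F5*, *Serpinc1* and *Plg* overlap a gene on the opposite strand, and whether strand was used in counting is not given in the sources used here. *C1ra* and *C4b* also have close copies, and *C1rb* differed by −0.01.

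A further 49 genes of the same pathways were listed for context, and 40 of them passed the filter on low values. By the threshold, 1 of the 40 rose and 0 fell, while 0.980% of all genes tested passed it in either direction. The gene that rose was *Vsig4*, the complement receptor of tissue macrophages, with FPKM of 2.33 and 2.69 in WT and of 2.79 and 9.32 in Brg1 LKO. LKO replicate 1 was close to the WT livers, and the difference of 1.00 (SE 0.46, adjusted p = 1.00) became 0.15 without LKO replicate 2 and 1.85 without LKO replicate 1. It also missed the threshold under 9 of the other 12 alternatives, among them quantile normalization and scaling to the same FPKM total.

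The chains of C1q, which bind antibody and open the classical pathway, come from macrophages rather than hepatocytes. They were picked here after their values were seen. *C1qa* was at 12.0 and 11.7 FPKM in WT and 14.0 and 27.1 in Brg1 LKO, *C1qb* at 8.28 and 8.72 in WT and 11.5 and 22.4 in Brg1 LKO, and *C1qc* at 5.51 and 5.32 in WT and 7.39 and 15.7 in Brg1 LKO. Both Brg1 LKO livers were above both WT livers for each chain, with differences of 0.71, 0.91 and 0.98 that did not reach 2-fold, and the unadjusted p was under 0.05 for *C1qb* and *C1qc* but not for *C1qa*. Without LKO replicate 2 they were 0.24, 0.43 and 0.44, and without LKO replicate 1 they were 1.19, 1.39 and 1.52 and passed the threshold. The differences of *C1qb* and *C1qc* thus moved most with LKO replicate 2 or LKO replicate 1 left out. Without WT replicates 1 and 2 in turn they were 0.87 and 0.95 for *C1qb* and 1.01 and 0.96 for *C1qc*. With no filter the limma p of neither gene was under 0.05. With the livers scaled to the same FPKM total both genes passed the threshold, and *C1qc* did so with median-ratio rescaling. *C5ar1*, the C5a receptor, was at 0.506 and 0.414 FPKM in WT and 0.710 and 1.02 in Brg1 LKO, a difference of 0.77, with an unadjusted p under 0.05 and short of 2-fold. It was 0.54 without LKO replicate 2, and its p was not under 0.05 there, with either of the WT livers left out or with no filter. Without LKO replicate 1 it was 1.00 and passed the threshold.

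All 8 markers of Kupffer cells and other macrophages, among them *Vsig4* and *C1qa* themselves, had positive differences, with a median of 0.76, and *Cd68* and *Vsig4* passed the threshold. Their summed FPKM was 31.1 and 31.0 in WT and 39.1 and 81.4 in Brg1 LKO. Leaving out LKO replicate 2 gave a median of 0.20, and leaving out LKO replicate 1 gave 1.37. The part of macrophage RNA in the values of C1q, *Vsig4* and *C5ar1* was not tested. The hepatocyte markers, by contrast, had a median of 0.09. Their sums were 37333, 30079, 31919.5 and 36663 FPKM in WT replicates 1 and 2 and LKO replicates 1 and 2. The context gene *Fgb* is among them, and the endothelial and stellate lists also hold context genes. The medians were −0.21 for 8 sinusoidal endothelial markers, −0.003 for 7 stellate markers, −0.23 for 4 of 5 biliary markers, 0.47 for 4 of 6 neutrophil markers and −0.24 for 2 of 5 platelet markers, the number tested being given. With each liver left out, the endothelial median ran from −0.65 without LKO replicate 2 to 0.37 without LKO replicate 1, and the stellate median from −0.18 to 0.13 without LKO replicate 2 and WT replicate 2. Without WT replicates 1 and 2 in turn, the biliary median was −0.46 and 0.01, the neutrophil median 0.86 and 0.13, and the platelet median −0.54 and 0.06. The hepatocyte median ran from 0.003 without WT replicate 2 to 0.22 without LKO replicate 1. Neutrophil markers summed to 11.4 and 4.33 FPKM in WT and to 16.3 and 8.01 FPKM in Brg1 LKO, and overlapped.

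The chains of fibrinogen, the precursor of fibrin, each had a higher mean FPKM over the 4 livers than *C3*. *Fga* was at 1505 and 724 FPKM in WT and 1310.1 and 1591 in Brg1 LKO. *Fgb* was at 3611 and 1991 FPKM in WT and 3372 and 3610.3 in Brg1 LKO. *Fgg* was at 2036 and 1106 FPKM in WT and 1925 and 2071 in Brg1 LKO. For all 3 chains WT replicate 2 was the low liver, while WT replicate 1 lay among or above the Brg1 LKO livers, and the differences of 0.38 to 0.47 did not pass the test. Without WT replicate 2 they were −0.06, −0.05 and −0.03 for *Fga*, *Fgb* and *Fgg*. Without WT replicate 1 they were 0.9965, 0.81 and 0.85, with an unadjusted p under 0.05 and short of 2-fold. *Cpb2*, which protects fibrin from plasmin, had the same low liver, with 78.7 and 38.7 FPKM in WT and 77.7 and 78.8 in Brg1 LKO. Its difference of 0.50 became −0.008 when WT replicate 2 was left out. When WT replicate 1 was left out it became 1.01 and passed the threshold. The lowest differences of the context genes were those of *Vwf* (−0.65) and *Cd59a* (−0.54), with both Brg1 LKO livers below both WT livers and neither past the test. *Vwf*, the platelet tether made by endothelium, was at 0.316 and 0.463 FPKM in WT and 0.249 and 0.173 in Brg1 LKO, and *Cd59a*, the membrane inhibitor of the pore, at 6.92 and 8.97 in WT and 5.21 and 5.60 in Brg1 LKO. *Cfd* and *Fcnb* were listed at 0 in all 4 livers.

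**Figure D4:**
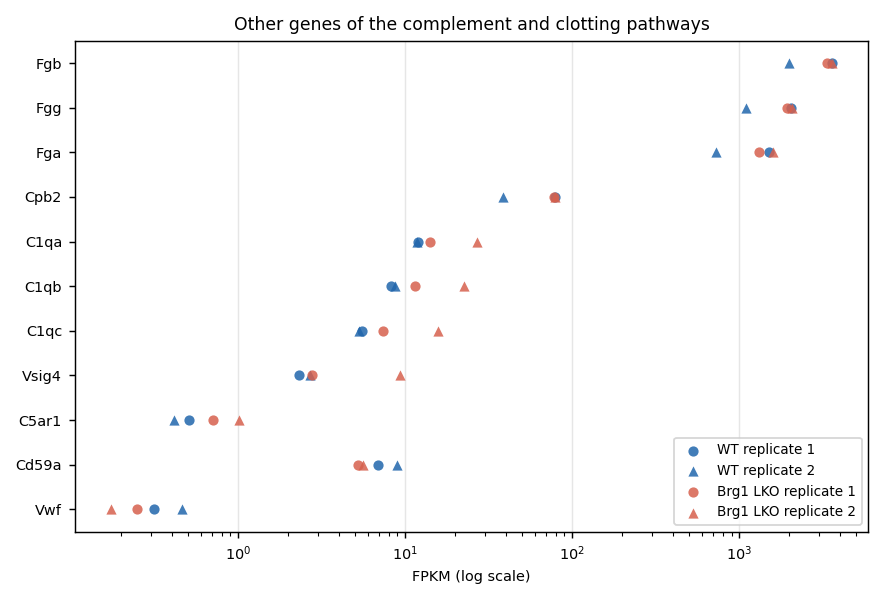
FPKM of 11 further genes of the complement and clotting pathways in each of the 4 livers on a log axis, with WT in blue, Brg1 LKO in red, replicate 1 as a circle and replicate 2 as a triangle. The fibrinogen chains and *Cpb2* were lowest in WT replicate 2, and the C1q chains and *Vsig4* were highest in LKO replicate 2.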

How the data were processed

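Whole liver of 2 WT and 2 Brg1 LKO mice was analysed, with genotype and replicate number taken from the labels. The authors deposited 1 table of FPKM values per gene and liver. In the study's methods, reads of stranded TruSeq libraries were trimmed with Trimmomatic, mapped to GRCm38 with HISAT2 and converted to FPKM with Cufflinks. The labels name a BGIseq protocol, and the submitters' processing notes name HISAT2 2.0.4 and StringTie 2.1.4, so the program behind the deposited values is not settled. FPKM divides by transcript length and library total, and no scaling between livers was added.

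Of 22103 entries, 5250 were at 0 in every liver, 27 symbols turned into dates were restored, and 83 shared a symbol. Depth was read from the steps of low FPKM values on GENCODE M21 transcripts of at least 2000 bases, where 88.5% to 89.7% of values of up to 20 reads lay within 0.1 of a whole read. It is not known whether such a read is single or a pair, and reads per gene are estimates.

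The 12346 entries with a mean of at least 0.1 FPKM were tested on log2(FPKM + 0.1) with limma (version 3.58.1, R 4.3.3), using lmFit and a trended eBayes, with Benjamini-Hochberg adjustment over all of them. A fold change on this scale understates that of low genes. The study tested read counts, which were not used here. The procedure was tested on simulated data. Alternatives tried were a pseudocount of 1 or of 0.01, no filter (entries above 0 in any liver), a filter at 1 FPKM, median-ratio rescaling, the same FPKM total, quantile normalization, an untrended eBayes, the replicate number as a block and each liver left out. Promoter windows came from RefSeq (GRCm38.p6). In 27 of 28 windows the bases after the start were found in a transcript of the gene.

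The 35 members, the context and marker lists, the roles and the tests were chosen with earlier results of these data known. By the rule for names, every member is given, with the context genes past the threshold, those with the lowest and highest differences and the fibrinogen chains. The C1q chains, *C5ar1*, *Cpb2*, *Ggcx*, *Vkorc1*, *Cfd* and *Fcnb* were added after their values were seen. *Tf* and *Adgre1* of the marker lists stood under older symbols. 1 context gene is not reported here.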

Additional observations from a re-analysis of the deposited data

How the results depend on the processing

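Of the 35 members, 0 passed the threshold and 0 had an unadjusted p under 0.05 from limma under all 13 alternatives. The sign of the difference was kept under every alternative by 9 members (*C3*, *C6*, *C9*, *F13b*, *F5*, *F9*, *Kng1*, *Masp1* and *Proz*). For 26 it changed under at least 1, among them *Vtn*, which reversed to −0.14 after quantile normalization. Where the groups did not overlap, only median-ratio rescaling, the same FPKM total and quantile normalization could turn the sign. The other alternatives were no check of it there. Members with groups that did not overlap numbered 6 (17.1%, beside 20.7% of all genes tested), 11 with the same FPKM total (31.4% beside 25.1%), 8 with median-ratio rescaling (22.9% beside 29.0%) and 9 after quantile normalization (25.7% beside 29.4%). This count was not made with a liver left out. The median difference of the thrombin generation genes was 0.26 with the same FPKM total and −0.0071 to 0.26 with each liver left out. That of the central and alternative pathway was −0.0607 after quantile normalization. With each liver left out, the medians of the classical and lectin genes were −0.15 to 0.24 and those of the terminal genes −0.31 to 0.15. Across the table, 121 genes passed the threshold, 18 with a pseudocount of 1, 80 with no filter, 68 with a filter at 1 FPKM and 78 to 552 with each liver left out (231 without WT replicate 1, 78 without WT replicate 2, 552 without LKO replicate 1 and 450 without LKO replicate 2). An adjusted p under 0.05 was found for 0 genes, for 2 with the filter at 1 FPKM and for 0 to 269 with each liver left out (269 without LKO replicate 1 and 140 without LKO replicate 2). Where 1 liver of a genotype remained, it was assumed to vary like the other genotype. The causes were not tested. The replicate numbers came from the labels alone. The deviations of same-numbered livers correlated at 0.03 across genes, but a correlation leaves out a shift common to all genes. Replicate 2 was above replicate 1 by a median over all genes of 0.27 in WT and 0.30 in Brg1 LKO. Whether same-numbered livers form pairs is thus not settled, and the main fit did not pair them. With the replicate block 108 genes and 0 members passed the threshold. With 2 livers per genotype the spread between livers that limma shares across genes, not depth, limits what can be seen in the members.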
